A study of Bos taurus with 20 samples.

Results

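bta-miR-183, bta-miR-96 and bta-miR-182 are the mature products of 3 miRNA genes that are made as 1 polycistronic transcript. The rows with these names were taken from the table of miRNAs in bull spermatozoa, so that 3 of 1029 miRNAs were members, and all 3 passed the filter on low counts that left 435 miRNAs for the comparison of fertility groups. The 20 small RNA libraries came from 20 adult Holstein-Friesian bulls used for artificial insemination, 10 of high fertility (HF) and 10 of low fertility (LF), graded on adjusted records of pregnancy to a service. Every library was made from frozen-thawed semen, pooled over 3 ejaculates of the bull and treated with a lysis buffer against somatic cells before the RNA was extracted. HF and LF bulls were selected by a field score, and the labels give no allele or agent for either. The deposited values are counts that the authors divided by the library size and the TMM factor of each library, and are called normalized counts here.

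The 3 miRNAs are known as a conserved cluster with a very high level in sensory cells. Among these are the photoreceptors of the retina and the hair cells of the inner ear. Seed mutation of miR-96 causes hearing loss in mice and humans. Like other miRNAs, they guide Argonaute proteins to mRNAs through the seed at their 5′ end, and repress those mRNAs. Their seeds are closely related but not identical, and their known targets include the transcription factors FOXO1 and MITF. In the RefSeq annotation of ARS-UCD2.0 the 3 genes stood next to each other in the order MIR182, MIR96 and MIR183, with no other gene between them. The nearest gene on the side of MIR182 was NRF1, and on the side of MIR183 an unnamed protein-coding locus preceded UBE2H.

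The number of miRNA reads in a library, called its depth here, set what could be seen of the cluster. It is not the sequencing depth, which the authors report as group means only, so a shallow library need not have been sequenced less. Low values stepped by the worth of a single read, and dividing by this step gave between 103204 and 3097581 miRNA reads per library, with a median of 1092881 in HF and of 1085742 in LF libraries. HF replicate 17 was the shallowest library and LF replicate 11, with 310186 reads, the next. In HF replicate 17, 103 of the 435 tested miRNAs (23.7%) were at 0. A level of 3 reads corresponded there to a normalized count of 27.6. Since the lowest values of the cluster came from this library, results that rest on it are given with and without it. Counting intervals cover counting error only, as PCR copies were not told apart.

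bta-miR-182 and bta-miR-183 were present at the same moderate level, and bta-miR-96 far below both. The normalized count over the 20 bulls was 134 ± 35.1 (SD, n = 20) for bta-miR-182, 128 ± 48.9 (SD, n = 20) for bta-miR-183 and 13.3 ± 6.49 (SD, n = 20) for bta-miR-96. By mean level they ranked 140, 145 and 290 among the 1029 miRNAs of the table. Next to them in this order stood bta-miR-2336 (135) and bta-miR-2285bn (134) for bta-miR-182, bta-miR-199c (129) and bta-miR-363 (126) for bta-miR-183, and bta-miR-137 (13.3) and bta-miR-29d-3p (12.8) for bta-miR-96, all with mean levels well within the spread between bulls of the member beside them. Together the 3 miRNAs took 0.0277% ± 0.00872 (SD, n = 20) of the normalized counts of a library, from 0.00969% in HF replicate 17 to 0.0423% in LF replicate 20. These levels are counts per mature miRNA. They were not set per length, and whether library preparation favoured some miRNAs over others was not tested. Ratios between miRNAs are therefore ratios of counts.

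The 3 levels were compared within bulls, since both members of a ratio come from the same library. The log2 ratio of bta-miR-182 to bta-miR-183 was 0.20 ± 0.78 (SD, n = 20), above 0 in 9 bulls, below 0 in 10 and equal in 1, and did not differ from 0 beyond the spread between bulls (sign-flip permutation test, two-sided, p = 0.29). With HF replicate 17 left out it was 0.056 ± 0.41 (SD, n = 19, permutation p = 0.58). bta-miR-96 was the lowest member in 20 of 20 bulls. Its log2 ratio was -3.23 ± 0.53 (SD, n = 20) to bta-miR-183 and -3.43 ± 0.89 (SD, n = 20) to bta-miR-182 (sign-flip permutation test, p = 1e-05 for each, the smallest that 100000 resamples can give), the latter being -3.28 ± 0.58 (SD, n = 19) with HF replicate 17 left out. The median ratio of bta-miR-96 was 0.115 to bta-miR-183 and 0.107 to bta-miR-182. As in the log2 ratios above, 1 was added to each normalized count, which raises the ratios of the low bta-miR-96.

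**Figure D1:**
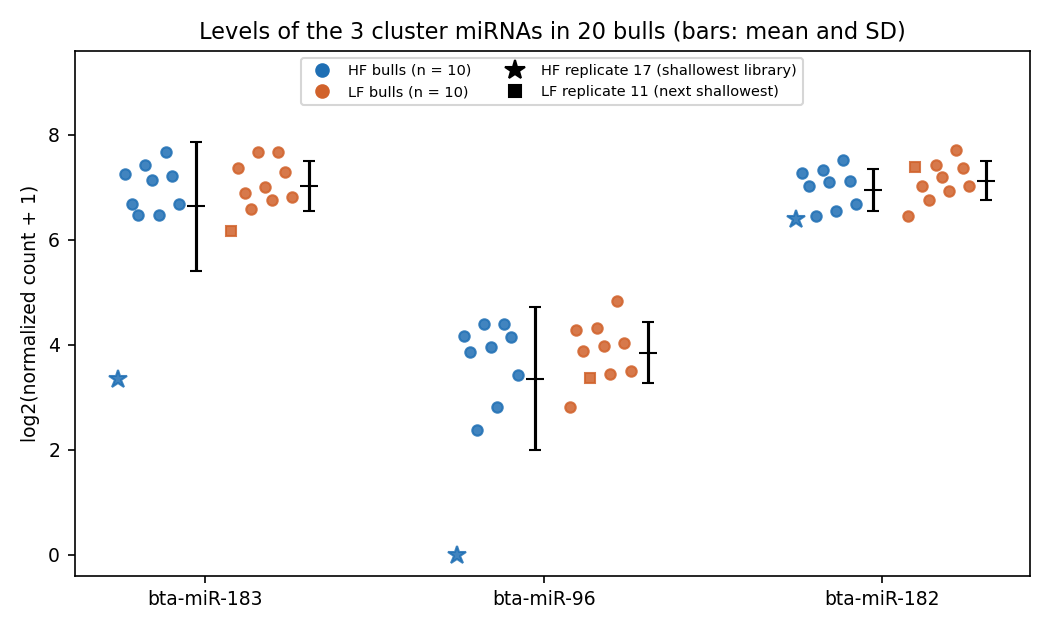
Level of each cluster miRNA in every bull, as log2(normalized count + 1) on the y axis, for HF and LF bulls, with the mean and SD as black bars. The points of both groups overlap for each miRNA, bta-miR-96 lies below the other members, and HF replicate 17 (star) is far below the other bulls for bta-miR-183 and at 0 for bta-miR-96.

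The reads behind these levels were few. bta-miR-183 was counted with 1 to 341 reads per library (median 134.5), bta-miR-182 with 9 to 345 (median 143.5) and bta-miR-96 with 0 to 42 (median 13.5). In all, 6238 reads were counted on the cluster, of which 4.84% were of bta-miR-96. At the median number of reads, counting alone gives a coefficient of variation of 8.62% for bta-miR-183, 8.35% for bta-miR-182 and 27.2% for bta-miR-96, where the observed values over bulls were 38.3%, 26.1% and 48.8%. The variance of the reads around those expected from the depth and scaling of each library was 15.4 times that of Poisson counting for bta-miR-183, 10.2 times for bta-miR-182 and 2.57 times for bta-miR-96. Variation between libraries thus exceeded counting error for each member. This factor grows with the number of reads, which was lowest for bta-miR-96, so that it does not rank the members by their variation between libraries.

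bta-miR-182 was the steadiest member. Its SD over the 20 bulls on the scale of log2(normalized count + 1) was 0.39, against a median of 0.70 over the 435 tested miRNAs, 84.4% of which had a larger SD. The SD of bta-miR-183 was 0.93 and that of bta-miR-96 was 1.05, with 29.7% and 19.8% of the tested miRNAs above them. Without HF replicate 17 the SDs were 0.36 for bta-miR-182, 0.45 for bta-miR-183 and 0.63 for bta-miR-96, against a median of 0.65. 1 library thus set whether bta-miR-183 and bta-miR-96 lay above or below the median spread. Without it, 71.0% and 51.7% of the tested miRNAs had a larger SD than these 2, so that bta-miR-96 was near the median. These SDs include counting error, which is larger at few reads, and neither the members nor the tested miRNAs were matched by level.

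The counts in the 2 shallowest libraries were set beside the median level of the other libraries, as a description, since the intervals hold counting error and not the spread between bulls. At that level HF replicate 17 would hold 13.8 reads of bta-miR-183, and it held 1 (exact 95% Poisson interval 0.0253 to 5.57 reads). For bta-miR-182, 14.8 reads would be held at that level and 9 were seen (interval 4.12 to 17.1). For bta-miR-96 the same level corresponds to 1.57 reads, which the interval of its count of 0 holds (up to 3.69 reads). LF replicate 11 held 23 reads of bta-miR-183 (interval 14.6 to 34.5), where 41.1 would be held at the median level of the other libraries, and 54 reads of bta-miR-182 (interval 40.6 to 70.5), where 41.7 would be held.

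The question of the study was whether the sperm miRNAs of HF and LF bulls differ. Levels were compared with limma on log2(normalized count + 1), and a miRNA was called where the unadjusted p-value was under 0.05 and the fold change over 1.5, which 9 of the 435 tested miRNAs (2.07%) met, 5 of them with lower levels in HF bulls (1.15%). An unadjusted p-value under 0.05 was found for 15 (3.45%) and an adjusted one for 0, with the smallest at 0.92. With the TMM factor undone there were 10 calls, 3 higher and 7 lower in HF bulls, against 4 higher and 5 lower with it. Of the 3 cluster miRNAs 0 were called, and 0 of the 3 had an unadjusted p-value under 0.05 with limma, edgeR's quasi-likelihood and likelihood ratio tests, or DESeq2. All 3 had negative log2 fold changes with a median of -0.39, whereas 217 of the 435 miRNAs (49.9%) were negative with a median of 0.0051. Without HF replicate 17 they were -0.024 for bta-miR-183, -0.12 for bta-miR-96 and -0.12 for bta-miR-182, against a median of 0.033 over all miRNAs tested. The 3 members come from 1 transcript and the same libraries, so that their signs are not independent. In these bulk samples, fewer cells of a type and less RNA per cell cannot be told apart.

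bta-miR-183 had normalized counts from 9.19 to 202 in HF bulls with a median of 121, and from 71.0 to 204 in LF bulls with a median of 123. The groups overlapped, with 9 of the 10 HF bulls inside the LF range and 5 of 10 below the LF median. HF bulls had a mean of 120 ± 54.1 (SD, n = 10) and LF bulls of 136 ± 44.5 (SD, n = 10). The log2 fold change of HF over LF was -0.39 (standard error 0.38, 95% interval -1.17 to 0.39, unadjusted p = 0.31, adjusted p = 0.96 from limma). Without HF replicate 17 it was -0.024 (standard error 0.22, 95% interval -0.47 to 0.42, p = 0.91 from limma), and with edgeR's quasi-likelihood test on the reads of all 20 bulls it was -0.13 (p = 0.61).

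bta-miR-96, the member tied to hearing, had normalized counts from 0 to 20.2 in HF bulls with a median of 14.0, and from 6.02 to 27.6 in LF bulls with a median of 14.3. Of the HF bulls 8 lay inside the LF range and 5 below the LF median. HF bulls had a mean of 12.2 ± 6.91 (SD, n = 10) and LF bulls of 14.4 ± 6.19 (SD, n = 10). The log2 fold change was -0.49 (standard error 0.44, 95% interval -1.39 to 0.41, unadjusted p = 0.27, adjusted p = 0.96 from limma), and -0.12 (95% interval -0.74 to 0.50, p = 0.69 from limma) without HF replicate 17. The quasi-likelihood test gave -0.14 (p = 0.66 from edgeR).

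bta-miR-182, the member with the highest mean, though not beyond that of bta-miR-183 within bulls, had normalized counts from 82.7 to 182 in HF bulls with a median of 132, and from 86.2 to 209 in LF bulls with a median of 137. Of the HF bulls 9 lay inside the LF range and 6 below the LF median. HF bulls had a mean of 126 ± 34.2 (SD, n = 10) and LF bulls of 143 ± 35.8 (SD, n = 10). This gave HF over LF a log2 fold change of -0.18 (95% interval -0.57 to 0.21, standard error 0.19, unadjusted p = 0.34, adjusted p = 0.96 from limma). It was -0.12 without HF replicate 17 (p = 0.52 from limma) and with the quasi-likelihood test -0.15 (p = 0.42 from edgeR). On this scale the interval for bta-miR-182 left out a 1.5-fold difference in either direction, and those for bta-miR-183 and bta-miR-96 left out a 1.5-fold higher but not a 1.5-fold lower level in HF bulls.

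**Figure D2:**
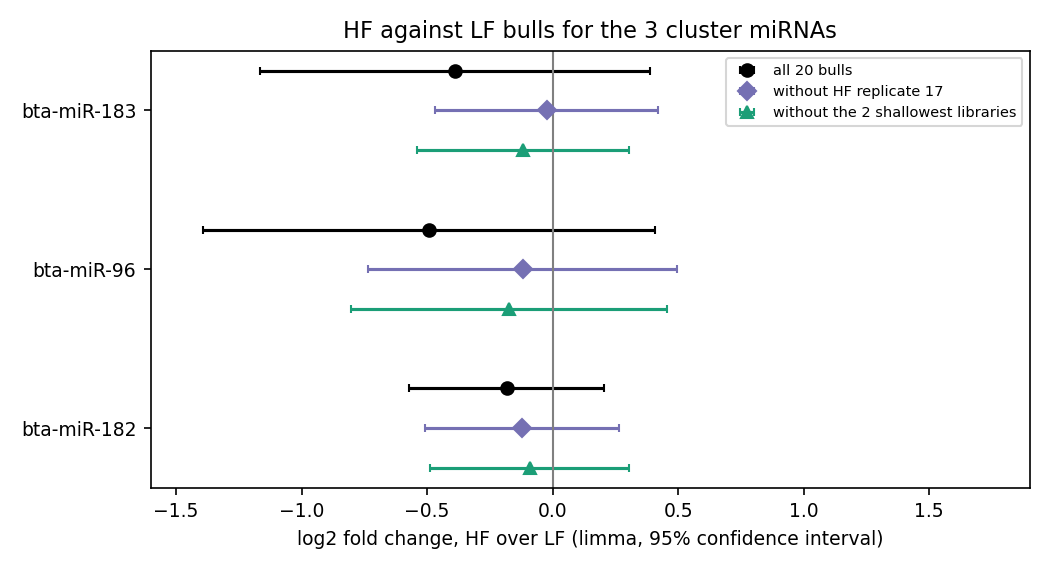
Log2 fold change of HF over LF bulls for each cluster miRNA (x axis) with its 95% confidence interval from limma, for all 20 bulls, without HF replicate 17 and without the 2 shallowest libraries. Every interval holds 0, and the value of bta-miR-183 moves from -0.39 to -0.024 when HF replicate 17 is left out.

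The balance of the 3 members within a library was also compared between the groups. The log2 ratio of bta-miR-182 to bta-miR-183 averaged 0.31 ± 1.01 (SD, n = 10) for HF bulls and 0.10 ± 0.47 (SD, n = 10) for LF bulls, which differed by 0.21 (standard error 0.35, two-sided permutation test, p = 0.68). The ratio of bta-miR-96 to bta-miR-183 averaged -3.28 ± 0.48 (SD, n = 10) for HF bulls and -3.18 ± 0.59 (SD, n = 10) for LF bulls, with an HF minus LF difference of -0.10 (standard error 0.24, permutation test, p = 0.67). For bta-miR-96 to bta-miR-182 it averaged -3.59 ± 1.10 (SD, n = 10) for HF bulls and -3.28 ± 0.65 (SD, n = 10) for LF bulls, with a difference of -0.31 (standard error 0.40, permutation test, p = 0.51). Benjamini-Hochberg adjustment over these 3 ratios gave p = 0.68 for each. No ratio differed between HF and LF bulls beyond the spread between bulls. When HF replicate 17 was left out, the difference in the ratio of bta-miR-182 to bta-miR-183 turned to -0.098 (permutation test, p = 0.63) and that of bta-miR-96 to bta-miR-182 to 0.0018.

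The split of reads between bta-miR-183 and bta-miR-182 was nearly even, although not in every library. Over all libraries, 49.8% of the reads of these 2 miRNAs were of bta-miR-183. In 12 of the 20 libraries the 95% Wilson interval of the share held this value, in 3 it lay above and in 5 below. The highest share was 58.1% (interval 53.6 to 62.5%) in HF replicate 12. The lowest shares were those of the 2 shallowest libraries, HF replicate 17 at 10.0% (interval 1.79 to 40.4%, on 10 reads) and LF replicate 11 at 29.9% (interval 20.8 to 40.8%, on 77 reads). LF replicate 18 at 39.5%, HF replicate 14 at 39.8% and HF replicate 2 at 42.4% were the others below, and HF replicate 2 was the deepest library.

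**Figure D3:**
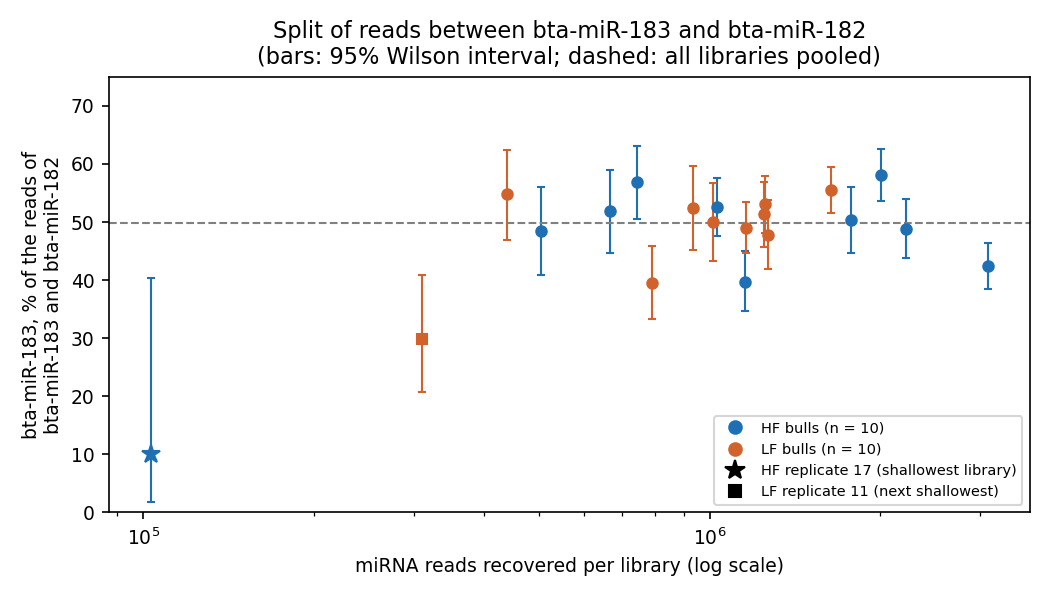
Share of bta-miR-183 among the reads of bta-miR-183 and bta-miR-182 in each library (y axis, %) against the miRNA reads of the library (x axis, log scale), with 95% Wilson intervals for counting error and the pooled share of 49.8% as a dashed line. The 18 deeper libraries lie between 39.5% and 58.1%, and the 2 shallowest, at 10.0% and 29.9%, lie below them.

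The share of bta-miR-96 among the reads of the cluster ranged from 0 to 8.82% over the libraries, with a median of 5.09%. The highest was that of LF replicate 13 (Wilson 95% interval 5.42 to 14.0%). In HF replicate 17, 0 of 10 reads were of bta-miR-96 (interval up to 27.8%), so that its share there was not distinguishable at this depth from that of the other libraries. Depth moved with the balance of the members through the same library. Across the 20 libraries the log2 ratio of bta-miR-182 to bta-miR-183 fell with log2 depth (r = -0.69, permutation p = 0.0063, adjusted over 3 ratios p = 0.0189), but by rank it did not (rho = -0.21, p = 0.37), and with HF replicate 17 left out r was -0.28 (p = 0.25). For bta-miR-96 to bta-miR-182, r was 0.53 (permutation p = 0.029, adjusted p = 0.0435) and 0.0055 (p = 0.98) with that library left out.

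Since the members are cut from 1 transcript, their levels were compared across bulls for co-variation, on the scale of log2(normalized count + 1), with Benjamini-Hochberg adjustment over the 3 pairs. bta-miR-183 and bta-miR-96 had Pearson's r = 0.86 (permutation test, p = 0.00039, adjusted p = 0.00117, n = 20) and Spearman's rho = 0.63 (p = 0.0036, adjusted p = 0.0108). For bta-miR-183 and bta-miR-182, r was 0.57 (p = 0.0027, adjusted p = 0.00405) and rho was 0.53 (p = 0.017, adjusted p = 0.0255) in the same permutation tests. For bta-miR-96 and bta-miR-182, r was 0.55 (permutation p = 0.0067, adjusted p = 0.0067) and rho was 0.35 (p = 0.13, adjusted p = 0.13). Bulls with more of 1 member therefore tended to have more of the others, with the weakest rank relation between bta-miR-96 and bta-miR-182.

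HF replicate 17 carried much of the first relation. Without it, r for bta-miR-183 and bta-miR-96 was 0.54 (permutation p = 0.017, adjusted p = 0.0435, n = 19) and rho was 0.57 (p = 0.013, adjusted p = 0.039). For bta-miR-183 and bta-miR-182, r was 0.50 (permutation p = 0.029, adjusted p = 0.0435) and rho was 0.45 (p = 0.052, adjusted p = 0.078). For bta-miR-96 and bta-miR-182, r was 0.43 (permutation p = 0.065, adjusted p = 0.065) and rho was 0.25 (p = 0.31, adjusted p = 0.31), no longer under 0.05. With the 2 bulls farthest from the median of the first member left out, r was 0.53 for bta-miR-183 and bta-miR-96 (permutation p = 0.023, n = 18), 0.69 for bta-miR-183 and bta-miR-182 (p = 0.0017) and 0.27 for bta-miR-96 and bta-miR-182 (p = 0.27). The relation of bta-miR-96 with bta-miR-182 no longer held without those bulls, which were HF replicates 16 and 17. Its r was 0.51 (permutation p = 0.021, n = 19) with HF replicate 16 alone left out, and 0.48 (permutation p = 0.041, n = 18) without the 2 shallowest libraries, so that its side of 0.05 depended on which bulls were left out. The relations of bta-miR-183 with both other members kept p-values under 0.05 without theirs, HF replicate 17 and LF replicate 11.

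**Figure D4:**
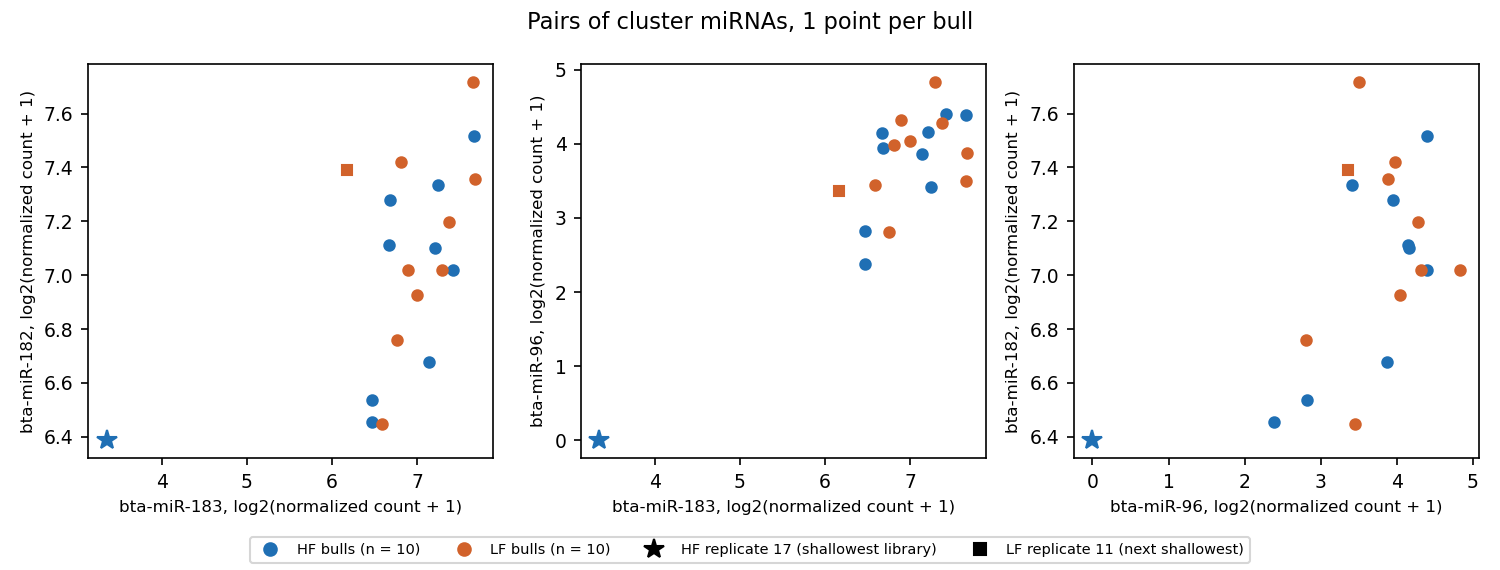
Levels of each pair of cluster miRNAs as log2(normalized count + 1) on both axes, with 1 point per bull, HF in blue and LF in orange. The points rise together in the panels with bta-miR-183, and less clearly for bta-miR-96 and bta-miR-182 (Spearman's rho = 0.35). HF replicate 17 (star) stands at the lower left of all 3, far from the other 19 bulls on the axes of bta-miR-183 and bta-miR-96.

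Within HF bulls r was 0.94 for bta-miR-183 and bta-miR-96 (permutation p = 0.0016, n = 10), 0.64 for bta-miR-183 and bta-miR-182 (p = 0.0090) and 0.73 for bta-miR-96 and bta-miR-182 (p = 0.0044). Leaving out HF replicate 17 gave 0.70 (permutation p = 0.035), 0.63 (p = 0.075) and 0.72 (p = 0.030), with n = 9. Within LF bulls r was 0.40 (permutation p = 0.26, n = 10), 0.41 (p = 0.25) and 0.11 (p = 0.78) for the same pairs. The relations were not past 0.05 in LF bulls alone. Whether they differ between HF and LF bulls was not tested.

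The depth of the libraries was set beside the levels as well. Across the 20 libraries, Pearson's r with log2 depth was 0.59 for bta-miR-183 (permutation p = 0.027, adjusted over 3 members p = 0.0765), 0.47 for bta-miR-96 (p = 0.051, adjusted p = 0.0765) and 0.038 for bta-miR-182 (p = 0.88, adjusted p = 0.88). Spearman's rho was 0.036, 0.0045 and -0.096 (permutation p = 0.88, 0.99 and 0.69, adjusted p = 0.99 for each). With HF replicate 17 left out, r was -0.025, -0.19 and -0.34 (permutation p = 0.92, 0.43 and 0.15). Among the 10 deeper libraries r was 0.72 for bta-miR-183 and bta-miR-182 (permutation p = 0.020), 0.42 for bta-miR-183 and bta-miR-96 (p = 0.23) and 0.53 for bta-miR-96 and bta-miR-182 (p = 0.12). Among the 10 shallower ones, which include HF replicate 17, r was 0.61 (permutation p = 0.043), 0.94 (p = 0.0023) and 0.62 (p = 0.045). By rank, rho was 0.70, 0.22 and 0.32 in the deeper libraries (permutation p = 0.03, 0.54 and 0.37). In the shallower ones it was 0.47, 0.83 and 0.35 (permutation p = 0.18, 0.0049 and 0.33). Whether the relations differ with depth was not tested.

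For context, the same r was computed for all 94395 pairs of the 435 tested miRNAs, as a description without a test, since pairs share libraries and scaling. The median over all pairs was 0.017. A higher r than that of bta-miR-183 and bta-miR-96 was found for 0.12% of the pairs, than that of bta-miR-183 and bta-miR-182 for 3.78%, and than that of bta-miR-96 and bta-miR-182 for 4.24%. These shares were, with HF replicate 17 left out, 4.30%, 5.64% and 9.05%. Among the 434 other miRNAs, bta-miR-183 had the highest r with bta-miR-96 and also with bta-miR-182. Seen from bta-miR-183, bta-miR-96 ranked 4 and bta-miR-182 ranked 50. With that library left out, bta-miR-183 ranked 1 for bta-miR-96 and 2 for bta-miR-182, while for bta-miR-183 they ranked 34 and 40.

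Pairs of miRNAs whose genes lie near each other were set beside the cluster. Of the 435 tested miRNAs 385 matched a single gene of the RefSeq annotation of ARS-UCD2.0, and besides the cluster 132 pairs had genes within 10 kb. Their median r was 0.35 (quartiles 0.15 and 0.55), above the median of all pairs. Of these 132 pairs, 3 had a higher r than bta-miR-183 and bta-miR-96, 31 than bta-miR-183 and bta-miR-182, and 33 than bta-miR-96 and bta-miR-182. When HF replicate 17 was left out, the median was 0.34 and the numbers were 38, 41 and 49. Pairs of the same family can share reads, and how far this raised r for the other pairs was not tested.

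**Figure D5:**
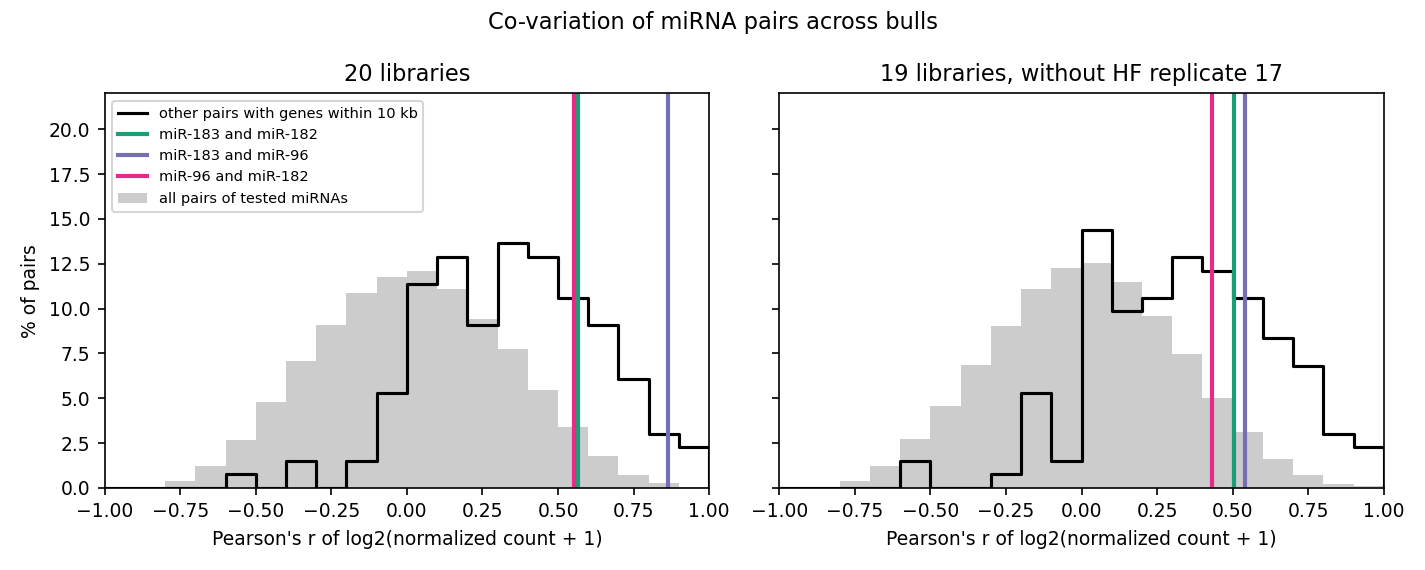
Distribution of Pearson's r across bulls (x axis) for all pairs of tested miRNAs (grey bars) and for the 132 other pairs with genes within 10 kb (black line), as % of pairs (y axis), with all 20 libraries and without HF replicate 17. The coloured lines mark the 3 pairs of the cluster, which lie to the right of the bulk of all pairs, and that of bta-miR-183 and bta-miR-96 moves from 0.86 to 0.54 when the library is left out.

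The miRNAs most like each member were listed by r over the 20 bulls among the tested miRNAs, again as a description. For bta-miR-183 these were bta-miR-92b (0.91), bta-miR-135a (0.88) and bta-miR-6522 (0.87), which had 0, 1 and 0 reads in HF replicate 17. Without this library they were bta-miR-26b (0.74), bta-miR-202 (0.71) and bta-miR-11984 (0.69). For bta-miR-96 they were bta-miR-183 (0.86), bta-miR-421 (0.81) and bta-miR-200c (0.81), the last a member of the epithelial miR-200 family, and without HF replicate 17 bta-miR-183 (0.54), bta-miR-12030 (0.51) and bta-miR-374a (0.50). For bta-miR-182 they were bta-miR-183 (0.57), bta-miR-484 (0.56) and bta-miR-96 (0.55), and without the library bta-miR-2285di (0.57), bta-miR-183 (0.50) and bta-miR-484 (0.44). bta-miR-183 was thus on the list of both other members with and without HF replicate 17.

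The cluster miRNAs are also known from epithelia, and lists of miRNAs of the cell types that semen could hold were measured beside them. By RT-PCR the authors found no product of CDH1 (epithelial cells), PTPRC (leucocytes) or KIT (germ cells) in the sperm RNA. Which cells the listed miRNAs came from was not tested. The epithelial list of 7 had a summed level from 17050 to 24349 in HF and from 17693 to 27773 in LF bulls, most of it bta-miR-375 (mean 10608), bta-miR-200a (6567) and bta-miR-200b (4118). In the comparison of HF with LF bulls 0 of its 7 miRNAs were called in limma, against 2.07% of all tested. Negative log2 fold changes were found for 6 of 7, against 49.9%, with a median of -0.39 over the list. The exception was bta-miR-375, the most abundant (0.17), and the log2 sum of the list differed by -0.052, HF minus LF. The 7 are not independent. Genes of bta-miR-200a, bta-miR-200b and bta-miR-429 lie within 10 kb, as do those of bta-miR-141 and bta-miR-200c, with r from 0.66 to 0.81 across bulls. bta-miR-429 (log2 fold change -0.47, unadjusted p = 0.014 in limma) and bta-miR-200a (-0.28, unadjusted p = 0.040) were under 0.05 without reaching a fold of 1.5, against 3.45% of all tested, and bta-miR-429 was named after its values were seen. The leucocyte and blood list of 7 was far lower, from 98.1 to 277 in HF and from 80.2 to 316 in LF bulls, led by bta-miR-142-5p (mean 92.6). The muscle and stroma list of 11 lay between 193 and 2008 in HF and between 279 and 2417 in LF bulls, led by bta-miR-143 (mean 439). All listed miRNAs were above 0 in some library, and among those tested of these lists 0 of 6 and 0 of 8 were called, 1 (bta-miR-486) and 0 had an unadjusted p-value under 0.05 in limma, and the lists had median log2 fold changes of 0.30 and 0.33.

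The other lists held miRNAs typical of the male germ line and of sensory and neuroendocrine cells. The miR-34 and miR-449 miRNAs of the male germ line, 5 in number, summed to between 32093 and 77203 in HF and between 25829 and 54584 in LF bulls, with bta-miR-34c (mean 35783) in front. The sensory and neuroendocrine list of 6, which held bta-miR-7 (mean 8111), bta-miR-204 (7596) and bta-miR-9-5p (607), summed to between 8080 and 22713 in HF and between 5303 and 24939 in LF bulls. The other 3 entries were bta-miR-211 (mean 422) and bta-miR-124a and bta-miR-124b, which had identical values (56.1). Of the 6, 4 therefore had mean levels above those of bta-miR-182 and bta-miR-183, and bta-miR-124a and bta-miR-124b had levels between theirs and that of bta-miR-96. In these lists 0 of 5 and 0 of 6 were called in limma and 0 had an unadjusted p-value under 0.05, with median log2 fold changes of 0.20 and 0.12.

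Across bulls, the 3 members were set against the log2 sum of each of the 5 lists, which gave 15 relations. None had a p-value under 0.05 by Pearson's r (permutation tests, smallest adjusted p = 0.375). The largest r was that of bta-miR-183 with the epithelial list (0.44, permutation p = 0.060), which was 0.077 (p = 0.76) without HF replicate 17. By rank, bta-miR-183 had rho = 0.54 with the leucocyte and blood list (permutation p = 0.015, adjusted p = 0.225), and without HF replicate 17 r for it was 0.58 (permutation p = 0.0095, adjusted p = 0.1425), and 0.48 for the sensory and neuroendocrine list (p = 0.035, adjusted p = 0.2625). These relations did not pass the adjustment. Whether such cells take part in the level of bta-miR-183 was not tested.

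bta-miR-1271, which in mammals carries the same seed as miR-96 but is encoded elsewhere, had a higher normalized count than bta-miR-96 in 20 of 20 bulls. Its normalized count was 136 ± 44.9 (SD, n = 20), from 65.9 to 236, which was 10.2 times the mean of bta-miR-96. HF bulls had a mean of 145 ± 38.0 (SD, n = 10) and LF bulls of 127 ± 51.2 (SD, n = 10), and its log2 fold change was 0.24 (95% interval -0.23 to 0.72, standard error 0.23, p = 0.30 from limma). The seed was taken from general knowledge, as sequences were not used here.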

How the data were processed

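Small RNA of spermatozoa was sequenced from 10 HF and 10 LF bulls, grouped by their labels. The authors trimmed reads with Cutadapt, selected them by length, discarded reads of other small RNA classes, aligned to ARS-UCD1.2 with a Y chromosome with Bowtie, and counted mature miRBase miRNAs with miRDeep2. The deposited signal per miRNA is a count divided by library size and TMM factor. Reads were recovered by dividing by each library's commonest low value, and 95.0% of values above 0 were whole within 0.02 reads, including all values of the members. The count tests used the rounded reads.

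miRNAs under 1 in at least 10 bulls were removed. limma (3.58.1, variance trend, R 4.3.3) was fitted to log2(normalized count + 1) over all 435 miRNAs, without covariates, with Benjamini-Hochberg adjustment, and checked on simulated counts. edgeR (4.0.16) and DESeq2 (1.42.0) served as alternatives, as did other pseudocounts, filters and scalings, and each bull left out. Correlations and ratios used two-sided permutation tests of 100000 resamples (numpy 2.4.6). Named miRNAs were the members, the 3 most like each by Pearson's r, their neighbours in mean level, seed sharers, and up to 3 leading miRNAs of each list. The members and lists were chosen with earlier results of these data known, and leaving out the 2 shallowest libraries together was chosen after seeing the data. miRNA sequences were not used here.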

Additional observations from a re-analysis of the deposited data

Results flagged for a closer look

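In 20 groups of 10 bulls, made of 10 measures of the cluster in HF and in LF bulls, the distance of the highest or lowest bull from the next was set against the range of its group. It passed Dixon's 95% limit in 4 groups, where about 1 is given by chance. All 4 were HF bulls, in which HF replicate 17, the shallowest library, stood apart. Its log2(normalized count + 1) was 3.35 for bta-miR-183, with a gap of 0.724 of the range, and 0 for bta-miR-96, with a gap of 0.541, from 1 and 0 reads. Its log2 ratio of bta-miR-182 to bta-miR-183 was 3.04, with a gap of 0.697 of the range, from 9 and 1 reads. Its log2 ratio of bta-miR-96 to bta-miR-182 was -6.39, with a gap of 0.614 of the range, from 0 and 9 reads, and depends on the pseudocount of 1. On the scale of normalized counts none of the 3 members passed the limit in HF or LF bulls. The 4 measures share 1 library and are not independent of each other.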

How the results depend on the processing

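The group differences of the 3 members kept their negative sign and stayed without a call in all alternatives run for them. Leaving out bulls singly, the log2 fold change lay between -0.50 and -0.024 for bta-miR-183, between -0.61 and -0.12 for bta-miR-96 and between -0.26 and -0.12 for bta-miR-182. With at least 10 required in every library, bta-miR-183 and bta-miR-96 could not be tested. Over all miRNAs the 9 calls became 4 with a pseudocount of 5, 15 without a filter (731 tested) and 0 with at least 10 in every library (222 tested, 5 with an unadjusted p under 0.05 in limma, where edgeR's tests and DESeq2 with the usual filter called 13, 12 and 11), and lay between 7 and 15 with each bull left out, at 14 or more without HF replicate 6 or LF replicates 1, 11 or 13. The cause was not tested. For co-variation, most alternatives left out bulls singly, and all but Spearman's rho were judged by the permutation p of Pearson's r. By rank, bta-miR-96 with bta-miR-182 had no permutation p under 0.05 in any set of bulls where rho was computed. Co-variation kept its sign in 90 of 90 alternatives and its side of 0.05 in 82. It lost it in LF bulls alone (r = 0.41, 0.40 and 0.11 for bta-miR-183 with bta-miR-182, bta-miR-183 with bta-miR-96 and bta-miR-96 with bta-miR-182), in the 10 deeper libraries for both pairs with bta-miR-96 (0.42 and 0.53), which halve the number of bulls, and for bta-miR-96 with bta-miR-182 by Spearman's rho (0.35), without the 2 farthest bulls (0.27) and without HF replicate 17 (0.43, permutation p = 0.065). With each bull left out r lay between 0.50 and 0.63, 0.54 and 0.89, and 0.43 and 0.62 for the same pairs, each lowest without HF replicate 17. The HF minus LF difference of the ratios lay between -0.098 and 0.33 (bta-miR-182 to bta-miR-183), -0.21 and -0.013 (bta-miR-96 to bta-miR-183), and -0.42 and 0.0018 (bta-miR-96 to bta-miR-182). It turned to -0.098 and 0.0018 for the first and last without HF replicate 17, and for bta-miR-96 to bta-miR-183 to 0.083 with a pseudocount of 5 and 0.060 in the 10 deeper libraries. No ratio had a permutation p under 0.05 in any alternative. Depth limits bta-miR-96 most, at a median of 13.5 reads. No paired analysis was possible because HF and LF bulls share no replicate numbers.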
